A study of Mus musculus with 18 samples.

Results

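The genes described here are 6 genes of early blood progenitors and leukemia stem cells: Myb, Sox4, Lmo2, Msi2, Angpt1 and Satb1. They were picked by name from the gene column of the expression table, which lists 23418 genes, and their values in all 6 groups are given. Of the 6, 5 passed the filter on low values and were tested. Satb1 did not pass it, since it was at or near 0 in every library, so the name progenitor gene is not borne out for Satb1 at this depth.

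PolyA RNA had been sequenced from mouse leukemia cells of the C57BL/6 strain, each line carrying a fusion of MLL with AF9, AF6 or AF1p. MI-2-2, a compound that keeps menin from binding MLL, was given to every line at 6 µM over 6 days, beside cells given only its solvent, and all 6 groups were exposed to DMSO at 0.25%. The medium was changed and the compound renewed on day 3. The groups are therefore MLL-AF9 DMSO, MLL-AF9 MI-2-2, MLL-AF6 DMSO, MLL-AF6 MI-2-2, MLL-AF1p DMSO and MLL-AF1p MI-2-2, with 3 libraries each. How the fusions were introduced, the age of the mice and whether a line is 1 clone are not given in the sources used here. The labels number 3 replicates per group without saying that they were separate cultures, so the p-values reflect only how far these libraries scatter, and that scatter may be technical. There was no untransformed control, so each comparison is between treated and solvent cells of a line or between lines. Where 3 values are given for the 3 lines, their order is MLL-AF9, MLL-AF6, MLL-AF1p.

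Values are RPKM, the reads of a gene per kilobase of its length and per M (mega) reads counted. Depth ran from 21.18 to 56.3 M reads per library and was highest in MLL-AF1p (48.88 to 56.3 M), so a difference of that line from the others cannot be told apart from a difference of depth by the design. With reads thinned to the smallest library, every MI-2-2 call of the 5 tested genes remained. Several defining markers of other blood cells were absent: the T cell gene Cd3e, the B cell genes Ebf1 and Ms4a1, and the erythroid genes Hba-a1 and Hbb-b1 had 0 reads in all 18 libraries. Others were detected. Thy1, a surface protein listed with the T cell markers, stood at 1020 RPKM in MLL-AF6 DMSO and 647 in MLL-AF1p DMSO. In the 3 DMSO groups the basophil gene Mcpt8 was at 15.1, 19.1 and 15.9 RPKM. Pecam1, from the stromal and endothelial list, was at 11.1, 61.0 and 81.5 RPKM in them.

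MLL fusions keep the part of MLL that binds menin, and through it stay on genes that hold blood cells in an immature, self-renewing state. MYB is a DNA-binding activator of such progenitor genes, SOX4 is a transcription factor of the HMG-box family, and LMO2 is a LIM-domain adaptor that bridges DNA-binding proteins in one complex. MSI2 is an RNA-binding protein of stem cells, angiopoietin 1 is a secreted ligand of the TEK receptor, and SATB1 organises chromatin in lymphoid cells. When myeloid leukemia cells mature, genes of this kind are usually turned down while granule and macrophage genes are turned up.

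The promoters of the tested genes are printed because Myb, Sox4 and Msi2 were all lower with MI-2-2 and yet differ in what lies before their starts. Each sequence is the 250 bases upstream of a RefSeq start in GRCm38.p6, all on the minus strand and written 5′ to 3′, and capitals mark a CCAAT box, a GGGCGG box or a TATAAA box on either strand. The table used held windows for 4 of the 6 genes (Myb, Sox4, Msi2 and Satb1), and no entry for Lmo2 or Angpt1. Msi2 has 3 neighbouring starts, of which the most downstream is shown. The windows are chr10:21160985-21161234, chr13:28953700-28953949 and chr11:88718230-88718479.
Myb: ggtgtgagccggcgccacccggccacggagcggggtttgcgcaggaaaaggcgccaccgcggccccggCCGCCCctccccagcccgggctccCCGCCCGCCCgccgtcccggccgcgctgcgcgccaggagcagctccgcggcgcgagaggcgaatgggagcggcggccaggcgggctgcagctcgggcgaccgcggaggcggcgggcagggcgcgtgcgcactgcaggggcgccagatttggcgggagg
Sox4: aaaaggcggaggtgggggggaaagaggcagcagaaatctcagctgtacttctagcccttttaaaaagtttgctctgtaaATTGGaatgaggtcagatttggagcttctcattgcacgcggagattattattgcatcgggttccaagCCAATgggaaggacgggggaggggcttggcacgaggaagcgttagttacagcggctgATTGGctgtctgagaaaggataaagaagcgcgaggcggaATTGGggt
Msi2: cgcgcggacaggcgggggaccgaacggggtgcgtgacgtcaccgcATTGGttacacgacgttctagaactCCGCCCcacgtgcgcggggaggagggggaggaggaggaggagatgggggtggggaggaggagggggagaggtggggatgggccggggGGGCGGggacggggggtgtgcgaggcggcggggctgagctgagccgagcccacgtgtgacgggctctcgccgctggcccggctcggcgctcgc
The Myb window held 3 GGGCGG boxes, a pair of which overlap, and no CCAAT. The window of Msi2 held 2 GGGCGG boxes and 1 CCAAT. In the Sox4 window there were 4 CCAAT and no GGGCGG. The share of bases that were G or C was 81.2% for Myb and 74.8% for Msi2 but 50.8% for Sox4, against a median of 52.4% over 32851 promoter windows of the same length. Among those windows 33.8% held a CCAAT, 32.7% a GGGCGG and 12.4% a TATAAA, while 0.840% held at least 4 CCAAT and 8.47% at least 3 GGGCGG. None of the 3 printed windows held TATAAA, the GATA motif GATAAG (6.55% of all windows) or the SOX core AACAAT (9.42%). The MYB core AACNG, in 74.2% of all windows, was found once in Msi2 and in neither of the others, and the E-box CANNTG, in 66.2%, was found in Sox4 and Msi2. These are matches of letters only, and no binding was measured.

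The first question was whether MI-2-2 lowered these genes with each fusion partner. Of the 5 tested, 4 were lower in MLL-AF9 cells and 5 each in MLL-AF6 and MLL-AF1p cells (limma, Benjamini-Hochberg adjusted p under 0.05), and none was higher. Among all 11238 tested genes, the shares called lower were 27.9%, 38.9% and 26.3% line by line, and 11.4% were lower in all 3. The genes were chosen with results of these data known, so the count is a description. In bulk RNA, fewer cells that express a gene and less RNA per cell cannot be told apart. Median changes over all tested genes were −0.00, −0.16 and −0.06 on the log2 scale, against −1.15, −1.36 and −0.68 over the 5 genes.

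**Figure D1:**
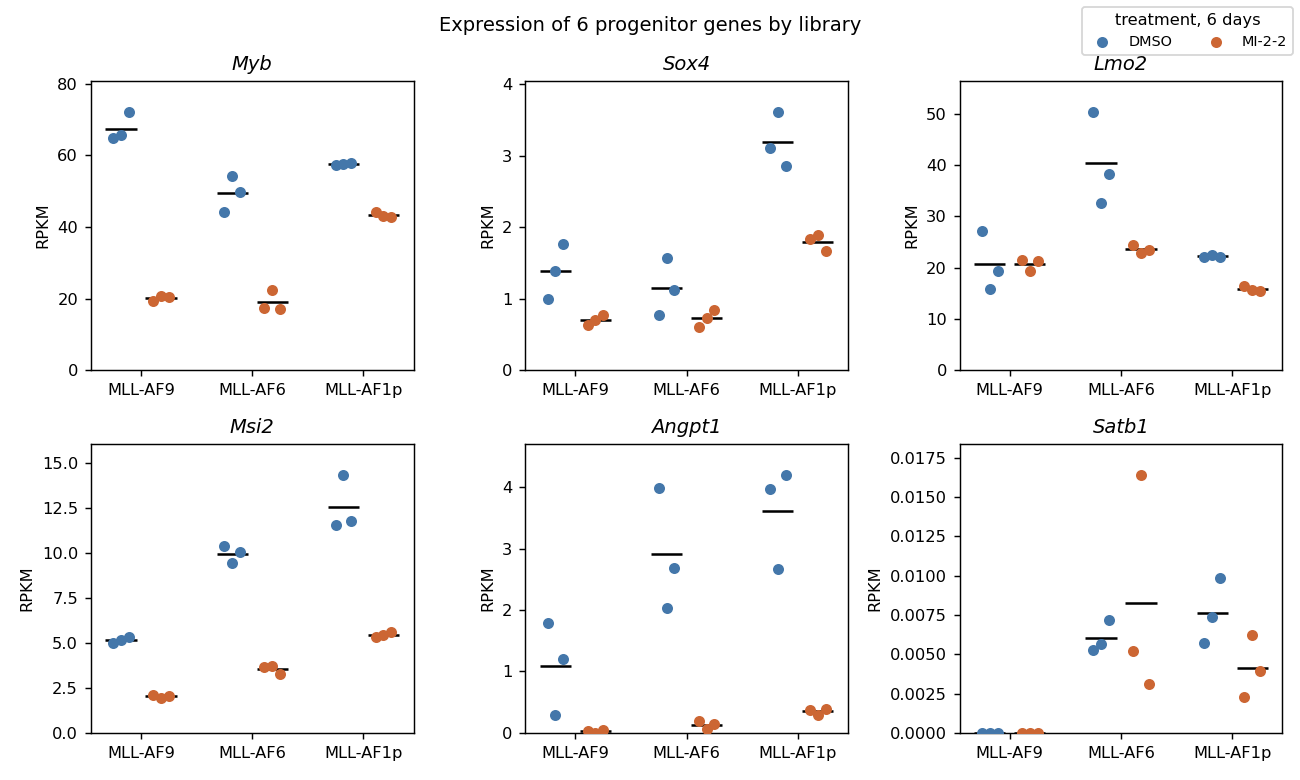
RPKM (vertical axis, linear, from 0, with its own scale per panel) of the 6 genes in the 18 libraries. Points are libraries, coloured by treatment, short black lines are group means of 3 libraries, and the horizontal axis gives the fusion. MI-2-2 points lie below the DMSO points for Myb, Msi2 and Angpt1 in all 3 lines, overlap them for Lmo2 in MLL-AF9 and for Sox4 in MLL-AF6, and Satb1 reaches at most 0.0164 RPKM.

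Myb, which encodes an activator of progenitor genes, had the highest mean RPKM of the 6 in MLL-AF9 DMSO cells. In that line it stood at 64.7, 65.6 and 72.1 RPKM in the DMSO libraries and at 19.2, 20.8 and 20.3 in the MI-2-2 libraries (replicates 1, 2 and 3). In MLL-AF6 cells the values were 44.2, 54.3 and 49.8 with DMSO and 17.4, 22.4 and 17.1 with MI-2-2. MLL-AF1p libraries gave 57.3, 57.5 and 57.8 with DMSO and 44.2, 43.0 and 42.8 with MI-2-2. Treated and control libraries did not overlap in any line, a pattern that 28.2%, 41.5% and 40.3% of all tested genes showed in the lower direction. The treated means were 29.8 ± 1.23%, 38.4 ± 4.15% and 75.4 ± 0.793% of the DMSO means (SE of the ratio, n = 3 and 3). Log2 changes were −1.72, −1.36 and −0.40 (limma, adjusted p = 3.91e-10, 5.62e-09 and 0.00196). Larger falls were seen in 0.783% of tested genes in MLL-AF9 and 1.53% in MLL-AF6, but in 18% in MLL-AF1p.

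Msi2, the RNA-binding protein gene, fell in all 3 lines. Its DMSO libraries read 4.98, 5.17 and 5.35 RPKM in MLL-AF9 cells and its treated libraries 2.12, 1.96 and 2.07. In MLL-AF6 the values were 10.4, 9.41 and 10.03 against 3.67, 3.73 and 3.28. In MLL-AF1p they were 11.5, 14.3 and 11.8 against 5.32, 5.43 and 5.60. All treated libraries lay below all controls of their line. What remained was 39.7 ± 1.25%, 35.8 ± 1.76% and 43.4 ± 3.16% of the DMSO mean, and the log2 changes were −1.15, −1.36 and −1.13 (limma, adjusted p = 8.37e-09, 1.18e-09 and 2.5e-08). Between 1.51% and 2.71% of tested genes fell by more in the same line.

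Angpt1, the secreted ligand, was low with DMSO and close to absent with MI-2-2. MLL-AF9 controls had 1.79, 0.290 and 1.196 RPKM (162, 26 and 142 reads), and the treated libraries 0.0355, 0 and 0.0462 (4, 0 and 4 reads), where the library without reads allows up to 0.0258 RPKM at 3 reads. In MLL-AF6 the controls had 3.99, 2.03 and 2.69 RPKM and the treated libraries 0.200, 0.0557 and 0.153. In MLL-AF1p the controls had 3.97, 2.66 and 4.20 RPKM and the treated libraries 0.380, 0.285 and 0.396. Every treated library was below every control of its line, although MLL-AF9 DMSO replicate 2 lay within the range of the treated MLL-AF1p libraries. Summed over 3 libraries, 330 control reads stood against 8 treated ones, 1035 against 46, and 2286 against 224, leaving 2.50 ± 1.62%, 4.68 ± 1.73% and 9.79 ± 1.61% of the DMSO mean RPKM. On the log2(RPKM + 0.5) scale, which understates changes of low genes, the differences were −1.46, −2.39 and −2.25 (limma, adjusted p = 0.000553, 5.93e-06 and 1.82e-05). Only 0.303% and 0.169% of tested genes fell by more on that scale in MLL-AF6 and MLL-AF1p, and 1.33% in MLL-AF9. From the whole reads recovered from the RPKM values, voom in limma gave −5.47, −4.44 and −3.33 (adjusted p = 0.00121, 0.000137 and 1.88e-05).

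Sox4, the HMG-box factor gene, was near the filter level in MLL-AF9 and MLL-AF6 cells. MLL-AF9 libraries had 0.991, 1.39 and 1.77 RPKM with DMSO and 0.638, 0.702 and 0.767 with MI-2-2. MLL-AF6 libraries had 0.772, 1.57 and 1.13 against 0.607, 0.724 and 0.845, so the groups overlapped. MLL-AF1p libraries had 3.11, 3.61 and 2.86 against 1.83, 1.89 and 1.66, with no overlap. The treated means were 50.8 ± 8.70%, 62.8 ± 13.8% and 56.2 ± 4.44% of DMSO, and the log2 changes −0.63, −0.41 and −0.68 (limma, adjusted p = 0.00427, 0.0439 and 0.00329). The call in MLL-AF6 was fragile: it was lost under voom (limma, adjusted p = 0.0644), with no filter on low values (0.101), by centring on medians (0.105) and without any 1 of 11 of the 18 libraries, and it was at −0.24 without DMSO replicate 2 (adjusted p = 0.226).

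Lmo2, the adaptor gene, fell in 2 of the 3 lines. In MLL-AF9 cells it stood at 27.1, 15.8 and 19.4 RPKM with DMSO and at 21.5, 19.3 and 21.4 with MI-2-2, and the groups overlapped. MLL-AF6 controls had 50.4, 32.6 and 38.2 and treated libraries 24.5, 22.9 and 23.4. MLL-AF1p controls had 22.1, 22.5 and 22.1 and treated libraries 16.4, 15.6 and 15.4. The treated means were thus 100.1 ± 16.5%, 58.5 ± 7.71% and 71.0 ± 1.42% of DMSO. In MLL-AF9 the log2 difference was 0.03 with a 95% interval from −0.30 to 0.36 (limma, adjusted p = 0.869), and it ranged from −0.14 to 0.24 as single libraries were left out. Lmo2 fell in MLL-AF6 (−0.74, limma, adjusted p = 0.000864) and in MLL-AF1p (−0.48, adjusted p = 0.0195). The MLL-AF1p call ended with no filter on low values (limma, adjusted p = 0.0532) and without DMSO replicate 2 (0.0504) or MI-2-2 replicate 3 (0.0562) of that line. The DMSO replicate 1 libraries, where Lmo2 was highest in MLL-AF9 and MLL-AF6, also had the highest summed RPKM of 12 monocyte and macrophage markers: 1920 against 563 and 710 in MLL-AF9, and 4081 against 2010 and 2544 in MLL-AF6. The part of those markers in the Lmo2 values was not tested.

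Satb1, the chromatin organiser, had 0 reads in all 6 MLL-AF9 libraries, where 3 reads would have been at most 0.00568 RPKM. Its highest value anywhere was 0.0164 RPKM, from 9 reads in MLL-AF6 MI-2-2 replicate 2. Over the 3 libraries of a group it summed to 13 reads with DMSO and 15 with MI-2-2 in MLL-AF6, and to 29 and 16 in MLL-AF1p. A difference between treatments was not detectable at this depth. Myb and Angpt1 each lie over an unnamed antisense gene and Sox4 over a noncoding gene on the other strand in the later annotation used here, and the library kit does not mark strand, so reads of those transcripts cannot be told apart from theirs.

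**Figure D2:**
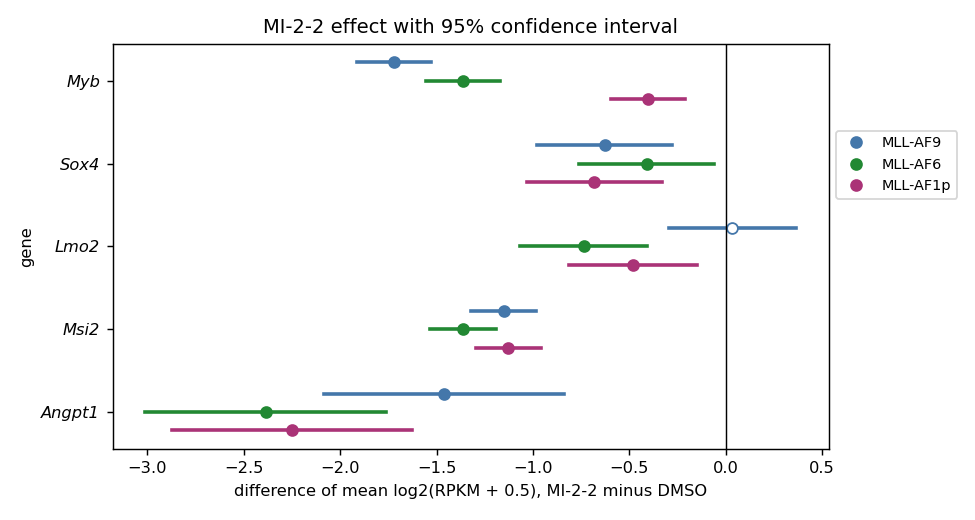
Difference of mean log2(RPKM + 0.5), MI-2-2 minus DMSO (axis of differences), for the 5 tested genes in the 3 lines. Points are limma estimates and bars their 95% intervals, with 3 libraries per group, and the open point did not pass the test. Msi2 lies between −1.13 and −1.36 in all lines, Myb moves from −1.72 in MLL-AF9 to −0.40 in MLL-AF1p, and the Lmo2 interval in MLL-AF9 includes 0.

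**Figure D3:**
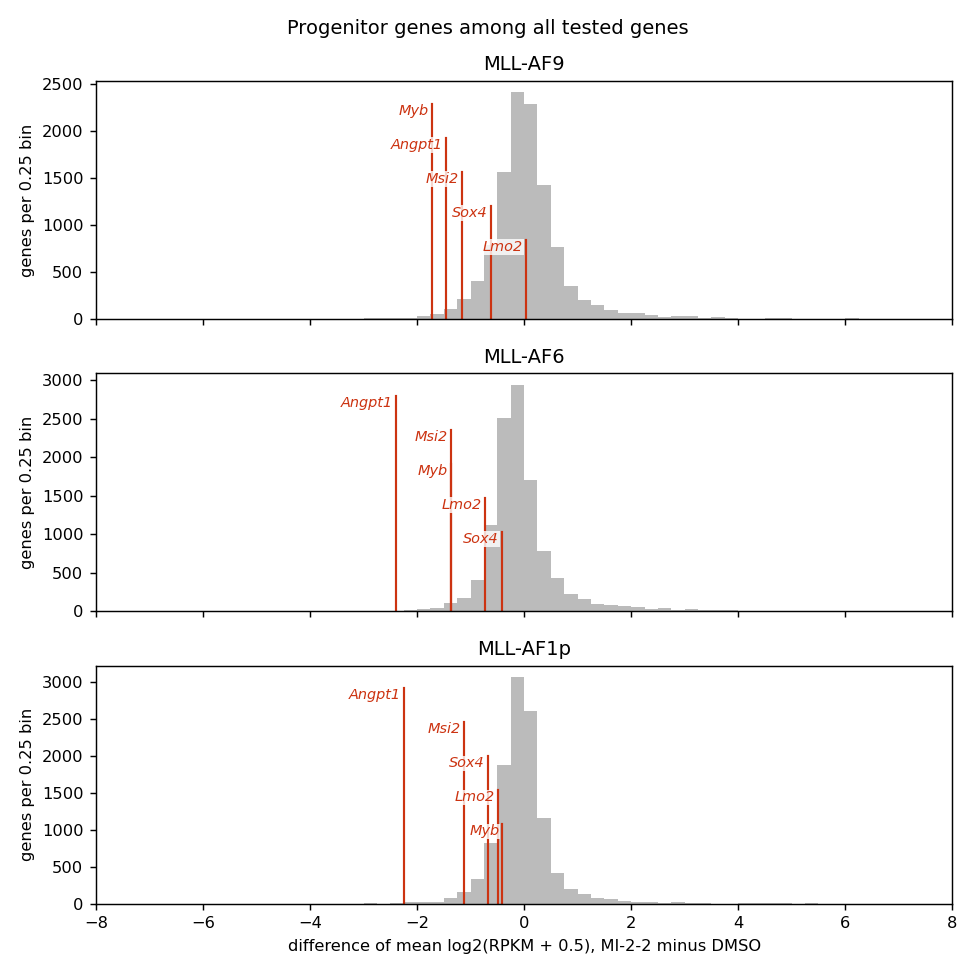
Number of tested genes (vertical axis) per 0.25-wide bin of the MI-2-2 difference on the log2(RPKM + 0.5) scale (horizontal axis), 1 panel per line, with the 5 genes marked by labelled lines whose heights carry no value. Angpt1 and Msi2 lie in the left tail in each panel, Myb does so in MLL-AF9 and MLL-AF6, and Lmo2 sits near the centre in MLL-AF9.

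The second question was whether the response differed between fusion partners, tested as a difference of the treatment differences. Myb fell less in MLL-AF1p than in MLL-AF9, by 1.32 on the log2 scale (95% interval 1.04 to 1.59, limma, adjusted p = 3.5e-06), and less than in MLL-AF6, by 0.96 (0.69 to 1.23, adjusted p = 7.36e-05). An F test over the 3 lines called Myb too (limma, adjusted p = 4.75e-06), as it did 52.8% of all tested genes, while 35.1% and 31.1% were called in those pairs. Between MLL-AF6 and MLL-AF9 the Myb difference was 0.36 (0.09 to 0.63, adjusted p = 0.0423). That call ended without any 1 of 12 of the 18 libraries, with no filter on low values (limma, adjusted p = 0.0812) and with thinned reads (0.0648).

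Lmo2 was the other gene with a called difference. Its change in MLL-AF6 was lower than that in MLL-AF9 by a log2 difference of −0.77 (95% interval −1.24 to −0.30, limma, adjusted p = 0.0142), in a pair where 33.1% of all tested genes were called. The MLL-AF1p minus MLL-AF9 difference of −0.52 did not pass (−0.98 to −0.05, adjusted p = 0.0798), but it did without MLL-AF9 DMSO replicate 1 (−0.72, adjusted p = 0.00512) or MLL-AF6 DMSO replicate 1 (0.0426). The F test over the lines gave an adjusted p of 0.0225 for Lmo2 (limma), which became 0.0689 with median centring, 0.0579 with quantile normalization and 0.0645 with no filter, and it was between 0.0502 and 0.051 without any 1 of 3 MLL-AF9 libraries.

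No difference between lines was called for Msi2, Sox4 or Angpt1. For Msi2 the intervals were narrow: −0.45 to 0.03 for MLL-AF6 minus MLL-AF9, −0.21 to 0.26 for MLL-AF1p minus MLL-AF9 and −0.00 to 0.47 for MLL-AF1p minus MLL-AF6. The last of these passed without MLL-AF1p DMSO replicate 2 (0.33, limma, adjusted p = 0.0189), the library where Msi2 was highest. For Sox4 they ran from −0.28 to 0.71, −0.55 to 0.44 and −0.77 to 0.22. For Angpt1 the estimates were −0.92 (−1.81 to −0.04), −0.79 (−1.67 to 0.10) and 0.14 (−0.74 to 1.02). Without MLL-AF9 DMSO replicate 1 the Angpt1 values against MLL-AF9 were called, at −1.25 and −1.11 (limma, adjusted p = 0.0153 and 0.0283). They turned sign with voom, at 1.03 and 2.13 (adjusted p = 0.622 and 0.216), so the direction of a difference between lines depends on the scale for a gene this close to 0.

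Levels also differed between the lines in the solvent controls of day 6. Under DMSO, Msi2 was lowest in MLL-AF9 and higher by 0.88 in MLL-AF6 and 1.198 in MLL-AF1p on the log2 scale (limma, adjusted p = 2.09e-07 and 5.53e-09). Angpt1 too was lowest in MLL-AF9, with the others higher by 1.19 and 1.48 (adjusted p = 0.00303 and 0.000392) and 0.29 apart from each other (0.423). Sox4 was highest in MLL-AF1p, by 0.99 over MLL-AF9 and 1.18 over MLL-AF6 (adjusted p = 8.24e-05 and 3.63e-05). Lmo2 was highest in MLL-AF6, by 0.96 over MLL-AF9, and lower again in MLL-AF1p, with a difference of −0.82 to MLL-AF6 (adjusted p = 9.45e-05 and 0.000458). Myb was highest in MLL-AF9, at a log2 difference of −0.45 for MLL-AF6 and −0.23 for MLL-AF1p (adjusted p = 0.000661 and 0.0381), and the latter call ended without any 1 of 4 libraries. Its difference of 0.22 between MLL-AF1p and MLL-AF6 (0.0513) passed without any 1 of 4, and that of Lmo2 between MLL-AF1p and MLL-AF9 (0.13, 0.466) without MLL-AF9 DMSO replicate 1 (0.34, 0.0334). The shares of all tested genes called in these DMSO comparisons were 53.6%, 65.1% and 52.5%, so calls of this kind were common.

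Under MI-2-2, Myb no longer differed by the test between MLL-AF9 and MLL-AF6 (−0.09, 95% interval −0.28 to 0.10, limma, adjusted p = 0.453), but a difference of −0.21 passed (0.0379) once replicate 2 of the treated MLL-AF6 cells was left out. It was 1.09 and 1.18 higher in MLL-AF1p than in MLL-AF9 and MLL-AF6 (adjusted p = 1.06e-07 and 8.51e-08). Msi2 kept the order of the lines, with MLL-AF6 0.67 and MLL-AF1p 1.22 above MLL-AF9 (adjusted p = 6.26e-06 and 6.2e-09). Sox4 stayed higher in MLL-AF1p, by 0.93 over MLL-AF9 and 0.91 over MLL-AF6 (adjusted p = 0.000215 and 0.00031). For Lmo2 the treated MLL-AF6 and MLL-AF9 levels did not differ by the test (0.18, −0.15 to 0.52, adjusted p = 0.357). Treated Lmo2 was lower in MLL-AF1p than in MLL-AF6 (−0.57, adjusted p = 0.00634) and than in MLL-AF9 (−0.38, 0.0481), the latter not without any 1 of 14 libraries. Treated Angpt1 did not differ by the test between any pair of lines, at 0.27, 0.69 and 0.43 for MLL-AF6 minus MLL-AF9, MLL-AF1p minus MLL-AF9 and MLL-AF1p minus MLL-AF6 (0.493, 0.0568 and 0.23). The second of these passed without any 1 of 3 libraries, with median centring (0.72, 0.0449), with a pseudocount of 0.1 (1.84, 0.00255) and with voom (4.15, 0.00886). Comparisons of treated cells called 43.1%, 54.1% and 52.5% of all tested genes.

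Ordered by group mean, Myb ran from 67.5 ± 4.01 RPKM in MLL-AF9 DMSO down to 19.0 ± 2.98 in MLL-AF6 MI-2-2 (SD, n = 3), and treated MLL-AF1p cells at 43.4 ± 0.767 lay next to MLL-AF6 controls at 49.4 ± 5.04, with overlapping libraries. Msi2 ran from 12.6 ± 1.55 in MLL-AF1p DMSO to 2.05 ± 0.0841 in MLL-AF9 MI-2-2, and treated MLL-AF1p cells (5.45 ± 0.145) overlapped MLL-AF9 controls (5.17 ± 0.187). Lmo2 ran from 40.4 ± 9.10 in MLL-AF6 DMSO to 15.8 ± 0.518 in MLL-AF1p MI-2-2. The MLL-AF9 DMSO libraries, spread from 15.8 to 27.1 RPKM, overlapped every other group except MLL-AF6 DMSO. Angpt1 ran from 3.61 ± 0.832 in MLL-AF1p DMSO to 0.0272 ± 0.0242 in MLL-AF9 MI-2-2. Sox4 ran from 3.19 ± 0.382 in MLL-AF1p DMSO to 0.703 ± 0.0645 in MLL-AF9 MI-2-2, and all neighbours in that order below MLL-AF1p DMSO overlapped.

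The falls went with higher levels of maturation markers and lower levels of some markers of other cell types. Of 12 monocyte and macrophage markers 10 were tested, of which 9, 8 and 10 rose and 0 fell (28.5%, 18% and 19.1% of all tested genes rose), and none of the 12 was at 0 in every library of a group. Their summed level was 563 to 1920 RPKM with DMSO and 4253 to 5511 with MI-2-2 in MLL-AF9. It was 2010 to 4081 and 9895 to 14114 in MLL-AF6, and 653 to 765 and 4166 to 4628 in MLL-AF1p. All 11 neutrophil markers were tested, and 11, 11 and 9 rose while 0 fell. Their sums were 2920 to 4118 RPKM over the DMSO libraries of MLL-AF9 and 24816 to 28903 over the treated ones. They were 2299 to 3146 against 18801 to 20629 for MLL-AF6 cells, and 3409 to 3857 against 30953 to 35880 for MLL-AF1p cells. Treated and control sums did not overlap. Of 7 T cell markers 2 were tested, Thy1 and the kinase gene Lck. Both fell in every line, as 11.4% of all tested genes did, while Lmo2 among the 5 genes did not fall in MLL-AF9. The summed T cell markers were 3.95 to 7.67 RPKM with DMSO and 1.15 to 1.68 with MI-2-2 for MLL-AF9, 706 to 1299 and 112 to 215 for MLL-AF6, and 626 to 671 and 220 to 257 for MLL-AF1p. Of 6 stromal and endothelial markers only Pecam1, an adhesion receptor also found on blood cells, was tested, and it fell by 1.26, 1.29 and 1.05 (limma, adjusted p = 1.21e-07, 1.01e-07 and 1.88e-06). The sums of that list were 9.89 to 13.3 RPKM against 4.59 to 5.46, 53.9 to 70.0 against 23.0 to 27.9, and 79.5 to 84.0 against 38.7 to 40.2, line by line. Of 5 mast cell and basophil markers only Mcpt8, a basophil protease gene, was tested, and it fell by 1.14 and 1.57 in MLL-AF9 and MLL-AF6 (0.000114 and 5.5e-06) and was at −0.09 in MLL-AF1p (0.721). Of 5 megakaryocyte markers only 1 was tested, and it did not move 1 way. It fell in MLL-AF9 (−1.42), rose in MLL-AF6 (1.25) and was not called in MLL-AF1p (0.20). The sums of that list in MLL-AF6 were 1.10 to 1.82 RPKM with DMSO and 3.03 to 4.70 with MI-2-2. The part of a changed mix of cells in the falls of the 5 genes was not tested.

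Of 11 listed relatives of the 6 genes only 4 passed the filter: 2, 2 and 2 rose while 1, 0 and 0 fell (medians 0.46, 0.31 and 0.24). Over all tested genes 28.5%, 18% and 19.1% rose and 27.9%, 38.9% and 26.3% fell, and the counts of every list stand against these shares. Mybl1, a MYB relative, rose from 0.488 ± 0.154 to 1.03 ± 0.0928 RPKM in MLL-AF9 (0.64, limma, adjusted p = 0.000235) and by 0.39 in MLL-AF6 (adjusted p = 0.0105). Mybl2, a MYB relative of dividing cells, rose by 0.42 in MLL-AF1p (adjusted p = 0.0176) and was at 0.32 in MLL-AF9 (adjusted p = 0.053). The former call of Mybl2 ended without either of 2 libraries and the latter value passed without any 1 of 4. Lmo4, another LIM-only adaptor, rose by 0.60 in MLL-AF9 and 0.37 in MLL-AF6 (adjusted p = 0.00316 and 0.0473), and the latter call ended without any 1 of 13 libraries. Msi1, the paralog of Msi2, was at 0.453 ± 0.103 RPKM in MLL-AF9 DMSO and at 0 in all 6 MLL-AF6 libraries.

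Around MYB, all 12 listed partners and targets were tested, of which 6, 2 and 2 rose while 3, 4 and 1 fell (medians 0.29, −0.09 and 0.05). Over all tested genes 28.5%, 18% and 19.1% rose and 27.9%, 38.9% and 26.3% fell, so most of these counts lie near the background. Gfi1, a repressor needed for neutrophil maturation, fell from 77.6 ± 2.37 to 28.4 ± 2.12 RPKM in MLL-AF9 (−1.44, limma, adjusted p = 4.4e-08). In MLL-AF6 it fell from 94.0 ± 6.33 to 29.1 ± 6.05 (−1.69, adjusted p = 6.92e-09). In MLL-AF1p Gfi1 stood at 75.3 ± 9.42 and 68.5 ± 1.95 (−0.13, adjusted p = 0.378). Myc, the growth regulator, fell by 1.32 in MLL-AF9 and 0.88 in MLL-AF6 (adjusted p = 0.0002 and 0.00486) and did not pass in MLL-AF1p (−0.50, 0.0984). The MLL-AF1p value of Myc passed without MLL-AF6 DMSO replicate 1 (0.0344) and with that line fitted alone (5.8e-05), while the MLL-AF6 call was lost with MLL-AF6 fitted alone (0.0542). The survival gene Bcl2 rose by 1.08 in MLL-AF9 and fell by 0.67 in MLL-AF1p (adjusted p = 3.43e-06 and 0.00052). Hipk2, a kinase that targets MYB for breakdown, rose by 1.01 in MLL-AF9 and 1.33 in MLL-AF6 (adjusted p = 0.00318 and 0.000395). In MLL-AF1p Hipk2 was at 0.51 (0.117), and passed without MLL-AF9 DMSO replicate 1 (0.0405). Hmgb3, a chromatin protein of progenitors, did not pass in any line (0.08, −0.26 and −0.20, adjusted p = 0.712, 0.198 and 0.351), but passed in MLL-AF6 without MI-2-2 replicate 2 (−0.45, 0.0315).

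The LMO2 complex gathers DNA-binding proteins of the E protein, GATA and RUNX kinds. Of 15 listed genes, 10 were tested: 0, 0 and 2 rose while 7, 8 and 3 fell (medians −0.31, −0.44 and 0.08). The shares of all tested genes that fell were 27.9%, 38.9% and 26.3%, and the MLL-AF1p count is near its share. Ldb1, which binds LMO2 directly, fell from 37.0 ± 0.956 to 28.4 ± 0.953 RPKM with MLL-AF9 (−0.37) and, with MLL-AF6, from 32.3 ± 1.38 to 23.4 ± 1.55 (−0.46, limma, adjusted p = 6.31e-05 and 9.52e-06). In MLL-AF1p it stood at 24.0 ± 0.841 and 24.2 ± 1.01 (0.02, adjusted p = 0.852). Ssbp2, which stabilises LDB1, fell in all 3 lines, by 1.85, 1.24 and 1.04 (adjusted p = 2.68e-09, 2.65e-07 and 3.12e-06). Tcf12, an E protein, fell by 0.33, 0.72 and 0.65 (adjusted p = 0.00381, 4.34e-06 and 1.88e-05), the first not with MLL-AF9 fitted alone (0.0526). The demethylase gene Kdm1a fell by 0.54 and 0.40 in MLL-AF9 and MLL-AF6 (3.53e-07 and 1.08e-05), and its fall by 0.14 in MLL-AF1p (0.0435) ended without any 1 of 9 libraries. Runx1 did not pass in any line, at −0.15, −0.48 and 0.43 (adjusted p = 0.569, 0.0598 and 0.102). It passed in MLL-AF6 without any 1 of 3 libraries (−0.69 and 0.0088 without DMSO replicate 2) and in MLL-AF1p without MLL-AF9 DMSO replicate 2 (0.048). Tal1, Gata1, Gata2, Erg and Cbfa2t3 did not pass the filter, and none of the 5 exceeded 1.10 RPKM in any library. Cbfa2t3 was still read in every library, with 8121 reads in all. Its DMSO means were 0.408, 0.829 and 0.745 RPKM and its MI-2-2 means 0.100, 0.240 and 0.711, differences that were not tested.

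Near SOX4, 10 of 14 TGF-beta and Wnt genes were tested: 5, 3 and 0 rose while 2, 2 and 1 fell (medians 0.34, 0.03 and 0.09). Beside these counts, 28.5%, 18% and 19.1% of all tested genes rose and 27.9%, 38.9% and 26.3% fell. The receptor gene Tgfbr2 rose from 3.69 ± 0.467 to 9.68 ± 0.981 RPKM with MLL-AF9 (1.28) and, with MLL-AF6, from 8.72 ± 0.796 to 16.0 ± 0.662 (0.84, limma, adjusted p = 1.44e-08 and 1.86e-06). Its partner Tgfbr1 rose by 0.82 and 0.52 there (adjusted p = 3.14e-06 and 0.000305). In MLL-AF1p the receptors were at 0.10 and 0.20 (adjusted p = 0.393 and 0.0992), and Tgfbr1 passed without MLL-AF9 DMSO replicate 2 (0.0485) and with median centring (0.0439). Smad3, which carries the signal to the nucleus, fell by 0.78 in MLL-AF6 (adjusted p = 0.00158) and by 0.51 in MLL-AF1p (0.0269), and the latter ended without any 1 of 4 libraries. Tcf7, a Wnt-pathway factor, fell by 0.95 in MLL-AF9 (7.86e-05) and was under 0.4 RPKM on average in the other lines. Its value of 0.36 in MLL-AF1p (0.0645) passed without MLL-AF9 DMSO replicate 1 (0.0405) or 2 (0.0188).

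Among 9 Musashi and Notch genes, 7 were tested, and 3, 3 and 2 rose while 1, 3 and 1 fell (medians 0.09, −0.15 and 0.05). The shares of all tested genes were 28.5%, 18% and 19.1% for rises and 27.9%, 38.9% and 26.3% for falls. The count of falls in MLL-AF6 is near its share. Numb, an inhibitor of Notch whose mRNA is a known target of Musashi proteins, rose in each line by 0.55, 0.39 and 0.49 (limma, adjusted p = 0.000619, 0.00768 and 0.00203). Notch1 rose as well, from 9.83 ± 1.16 to 21.2 ± 0.660 RPKM in MLL-AF9 (1.07), by 0.38 in MLL-AF6 and by 0.54 in MLL-AF1p (adjusted p = 8.54e-08, 0.00227 and 0.000183). Notch2 rose by 0.81 and 0.28 in MLL-AF9 and MLL-AF6 (1.05e-06 and 0.0122), the latter not without MLL-AF6 MI-2-2 replicate 1 (0.0621). Tspan3, a membrane protein gene studied as an MSI2 target, fell by 0.86 in MLL-AF9 and 0.85 in MLL-AF1p (8.35e-07 and 1.83e-06). Its fall by 0.28 in MLL-AF6 (0.0156) ended with median centring (0.0784), quantile normalization (0.12) and without MLL-AF6 MI-2-2 replicate 2 (0.0704).

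Tek, which encodes the TEK receptor of angiopoietin 1, and Tie1 were not detected at levels above a few reads. Tek had 2 reads over all 18 libraries and Tie1 had 5, in 1 and 3 libraries. Of 10 angiopoietin signalling genes 7 were tested: 3, 3 and 2 rose while 0, 2 and 3 fell (medians 0.07, 0.24 and 0.12). For comparison, 28.5%, 18% and 19.1% of all tested genes rose and 27.9%, 38.9% and 26.3% fell. Dok2, an adaptor that docks to TEK, rose from 6.70 ± 0.969 to 19.8 ± 1.73 RPKM in MLL-AF9 (1.499), by 0.50 in MLL-AF6 and by 0.57 in MLL-AF1p (limma, adjusted p = 5.03e-08, 0.00261 and 0.00122). Itgb1, an integrin subunit, rose by 0.61 and 0.39 in MLL-AF9 and MLL-AF6 and fell by 0.32 in MLL-AF1p (2.02e-06, 0.000176 and 0.00155). Pik3r1, a lipid kinase subunit, fell by 0.44 in MLL-AF6 and 0.33 in MLL-AF1p (0.00197 and 0.0168), the latter not without DMSO replicate 2 (0.0531) or MI-2-2 replicate 3 (0.051) of that line. Itga5, the partner of Itgb1, rose by 0.33 in MLL-AF9 (0.0279), a call that ended with median centring (0.0918) and without any 1 of 4 libraries. In MLL-AF6 Itga5 was at 0.27 (0.0619) and passed without any 1 of 3. Pik3r1 in MLL-AF9 was at −0.11 (0.367), and at −0.27 without DMSO replicate 2 (0.00401).

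The chromatin partners of SATB1 were present where Satb1 itself had at most a few reads. All 9 were tested, and 2, 0 and 0 rose while 5, 8 and 3 fell (medians −0.28, −0.47 and −0.01), where 27.9%, 38.9% and 26.3% of all tested genes fell and the MLL-AF1p count is close to its share. The deacetylase gene Hdac1 fell by 0.54, 0.66 and 0.21 (limma, adjusted p = 2.21e-05, 3.18e-06 and 0.0396) and Hdac2 by 0.38, 0.47 and 0.24 (0.000327, 5.37e-05 and 0.0132). In MLL-AF1p the Hdac1 call ended without any 1 of 8 libraries and the Hdac2 call without DMSO replicate 2 (0.053). Kat2b, an acetyltransferase, rose by 0.39 in MLL-AF9 (0.0253) and fell by 0.70 in MLL-AF6 (0.000529), the former not with median centring (0.0587) nor without any 1 of 3 libraries. At −0.25 in MLL-AF1p (0.154) Kat2b passed without MLL-AF9 DMSO replicate 2 (0.0388). Pml, the nuclear body gene, fell by 0.66 in MLL-AF6 (0.000117), and its calls in MLL-AF9 and MLL-AF1p ended without any 1 of 8 and 7 libraries.

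Of 19 other stem and progenitor genes only 9 passed the filter, of which 4, 2 and 0 rose while 5, 7 and 6 fell (medians −0.58, −1.35 and −0.80), beside 28.5%, 18% and 19.1% of all tested genes that rose and 27.9%, 38.9% and 26.3% that fell. Meis1, a homeobox cofactor, fell in each line, by 2.89, 2.56 and 1.89 (limma, adjusted p = 1e-13, 2.04e-13 and 2.35e-11). Mef2c, a MADS-box factor, rose by 1.90 in MLL-AF9 and fell by 1.86 and 1.39 in the others (7.7e-10, 9.1e-10 and 6.3e-08). Procr, a surface receptor of stem cells, was at 0.127 ± 0.123 and 4.04 ± 5.66 RPKM in MLL-AF6, a mean that rests on widely spread libraries (2.03, 0.00995). Its rise by 1.4998 in MLL-AF9 (0.0458) ended without any 1 of 13 libraries. Cd34, Slamf1, Mecom and Mycn were among the genes that did not pass, with Mycn at 0 in all 18 libraries.

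**Figure D4:**
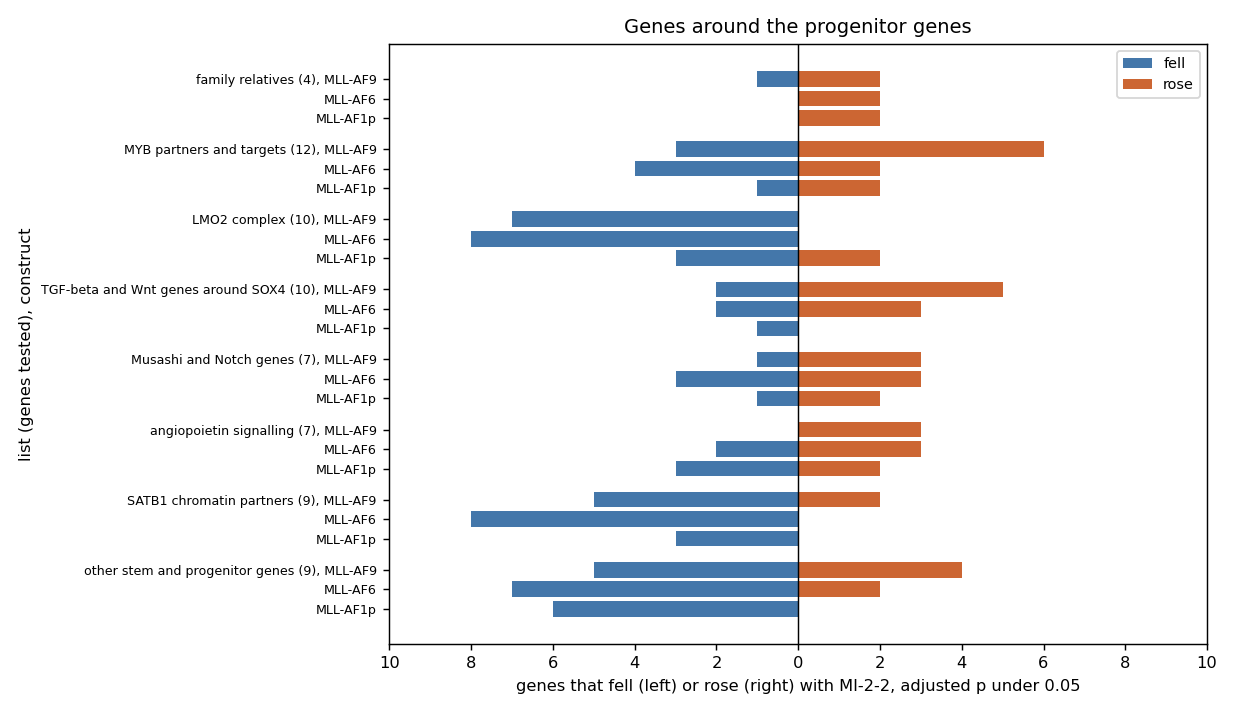
Number of tested genes that rose (right) or fell (left) with MI-2-2 at adjusted p under 0.05 in 8 lists of related genes, with 3 bars per list from top to bottom for MLL-AF9, MLL-AF6 and MLL-AF1p and the number tested in parentheses. LMO2 complex genes give 7, 8 and 3 falls, and the other stem and progenitor genes 5, 7 and 6.

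The genes whose 6 group means ran most like those of each gene were found among 8334 genes by the root mean square difference of centred log2(RPKM + 0.5). Likeness is a description over 6 groups and says nothing about shared function or control. The genes were picked by it, so their matching responses follow from the choice and are no separate result. For Myb these were Angptl4, an inhibitor of lipoprotein lipase (0.116), Cenpv (0.222) and Gfi1 (0.225), against a median of 0.708 over all genes searched. Angptl4 changed by −1.52, −1.14 and −0.33 (limma, adjusted p = 1.59e-07, 4.25e-06 and 0.0595). For Msi2 they were Ptpla (0.104), the zinc-finger factor Klf9 (0.197) and Tifab (0.208), and Ptpla changed by −1.18, −1.33 and −0.83 (adjusted p = 7.53e-10, 1.48e-10 and 8.55e-08). For Angpt1 they were Deptor, an inhibitor of the mTOR kinase (0.213), Crim1 (0.253) and Tsc22d2 (0.270), and Deptor changed by −1.28, −2.20 and −2.35 (adjusted p = 2.57e-05, 8.17e-08 and 8.55e-08).

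Sox4 ran closest to Rpa3, a subunit of the single-strand DNA binding protein RPA (0.0672), Gstcd (0.112) and Spata24 (0.116). Rpa3 changed by −0.51, −0.58 and −0.76 (limma, adjusted p = 0.000511, 0.000169 and 2.24e-05). Lmo2 ran closest to the fucosyltransferase-family gene Fut11 (0.0896), Snord53 (0.124), a small nucleolar RNA gene that polyA libraries read poorly, and Ttc17 (0.143). Fut11 was at −0.20 in MLL-AF9 (adjusted p = 0.407) and fell by 0.84 and 0.54 in MLL-AF6 and MLL-AF1p (0.00226 and 0.0382).

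**Figure D5:**
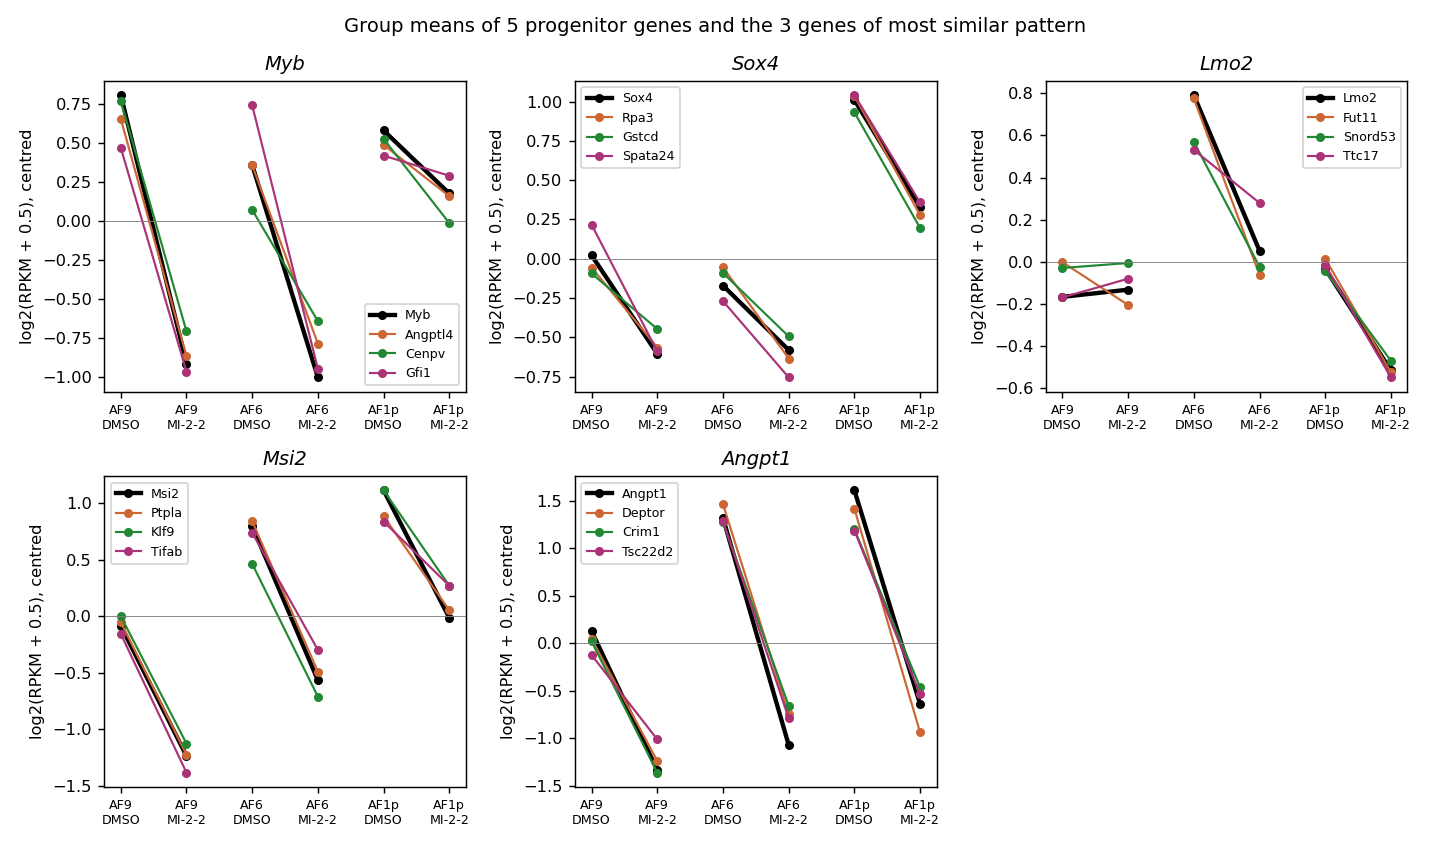
Group means of log2(RPKM + 0.5), centred on each gene's own mean over the 6 groups (vertical axis), for 5 genes in black and their 3 closest genes in colour. Points are means of 3 libraries, and lines join DMSO to MI-2-2 within a line of cells. The Angptl4 points follow Myb at a root mean square distance of 0.116, and those of Rpa3 follow Sox4 at 0.0672.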

How the data were processed

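The authors deposited one table of RPKM values for 23418 genes in 18 libraries of polyA RNA, with gene lengths, per the file headers. Tools named, with no roles, in the submitters' processing notes are HTSeq, edgeR, Bowtie2 2.0.0.7 and CASAVA 1.8.2, beside the build mm9, and the labels give both single-end and paired-end runs of an unstranded kit. Multiplying RPKM by gene length and by depth returned whole reads for 100% of values (tolerance 0.05).

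A gene was kept if 3 or more libraries reached 1 RPKM (11238 genes). limma 3.58.1 in R 4.3.3 was fitted to log2(RPKM + 0.5) over 6 group means (12 residual degrees of freedom, trended prior variance), with Benjamini-Hochberg adjustment over all kept genes in each comparison. A gene rose or fell where the adjusted p was under 0.05. The fit was tested on simulated data. The members and lists were chosen with earlier results of these data known. Named genes are the 6 members, Tek, Tie1, Ldb1, Numb and Hmgb3, up to 4 tested genes per list with the largest mean absolute change, and the 3 genes of most similar pattern per member. Of the list genes, Msi1, Tal1, Gata1, Gata2, Erg, Cbfa2t3, Cd34, Slamf1, Mecom and Mycn are named outside that rule, for their low levels. Markers of other cell types, among them Thy1, Lck, Pecam1 and Mcpt8, were named after their values were seen. Not every gene picked by the rule is reported here. Alternatives were quantile normalization, no filter, a pseudocount of 0.1, a constant prior variance, median centring, a replicate block, each library left out and each line fitted alone. Added after seeing the data were voom on the recovered reads, thinned reads, and the libraries of one replicate number left out of every group. Intervals cover 95%, and a floor is 3 reads, for counting error only. Promoters come from RefSeq (GRCm38.p6), a later build than that of the authors, so no gene positions are given. Figures used matplotlib 3.10.9 in Python 3.11.15.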

Additional observations from a re-analysis of the deposited data

Results flagged for a closer look

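The MI-2-2 effect on Myb differed between lines in each pair, by the test of the difference itself. It was 1.32 less negative in MLL-AF1p than in MLL-AF9, where all 3 treated libraries read 42.8 to 44.2 RPKM in MLL-AF1p and 19.2 to 20.8 in MLL-AF9. The difference between MLL-AF1p and MLL-AF6 was 0.96, and that between MLL-AF6 and MLL-AF9 was 0.36, a call that ended without any 1 of 12 of the 18 libraries. The MLL-AF1p libraries were also the deepest, at 48.88 to 56.3 M reads, and line and depth cannot be told apart by the design. Both differences of MLL-AF1p stayed called in 11 other settings, thinned reads among them. They ranged from 1.29 to 1.44 against MLL-AF9 and from 0.86 to 1.02 against MLL-AF6.

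For Lmo2 the effect in MLL-AF6 differed from that in MLL-AF9 by −0.77 on the log2 scale. Lmo2 fell in MLL-AF6, and in MLL-AF9 its treated and control libraries overlapped. In pairs of lines, 31.1% to 35.1% of all tested genes had a called difference of this kind.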

How the results depend on the processing

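No result changed direction while called. Whether the replicate numbers pair the libraries is not settled. Same-numbered DMSO and MI-2-2 libraries deviated together with correlations from 0.0139 to 0.46 in MLL-AF9, 0.00079 to 0.557 in MLL-AF6 and 0.0261 to 0.21 in MLL-AF1p. These were all positive but not all above 0.1. Libraries of unlike numbers gave −0.445 to 0.342, −0.565 to 0.229 and −0.232 to 0.151. In 2, 2 and 1 of 3 cases a DMSO library correlated best with the treated library of its own number. Deviations from a mean of 3 libraries are not independent, so these values cannot decide. The main fit treats the libraries as unpaired. With the replicate block, differences from MLL-AF9 passed for Angpt1 (−0.92 in MLL-AF6, −0.79 in MLL-AF1p, limma, adjusted p = 0.023 and 0.044) and Lmo2 (−0.52 in MLL-AF1p, 0.0278), and it ended no MI-2-2 call of the 5 genes. Among the related genes named, Hipk2, Myc and Runx1 in MLL-AF1p, Hmgb3, Itga5 and Runx1 in MLL-AF6 and Mybl2 in MLL-AF9 passed with it, as did Angpt1 for MLL-AF1p minus MLL-AF9 under MI-2-2 (0.0105). As single libraries were left out, the ranges of results whose call changed were −1.11 to −0.35 (Angpt1, MLL-AF1p minus MLL-AF9), −1.25 to −0.48 (Angpt1, MLL-AF6 minus MLL-AF9), −0.72 to −0.34 (Lmo2, MLL-AF1p minus MLL-AF9), −0.51 to −0.46 (Lmo2 in MLL-AF1p), 0.18 to 0.33 (Msi2, MLL-AF1p minus MLL-AF6), 0.24 to 0.43 (Myb, MLL-AF6 minus MLL-AF9) and −0.59 to −0.24 (Sox4 in MLL-AF6). No filter ended Lmo2 in MLL-AF1p (−0.48), Myb for MLL-AF6 minus MLL-AF9 (0.36) and Sox4 in MLL-AF6 (−0.41). Median centring (−0.33) and voom (−0.62) ended the last too, and thinned reads ended the Myb difference (0.34). Fitted alone, MLL-AF9 gave 2 lower genes, since fewer genes pass the filter there. With a line fitted alone, Tcf12, Itga5, Kat2b and Pml in MLL-AF9 and Myc in MLL-AF6 no longer passed, and Hipk2, Hmgb3, Kat2b, Myc, Runx1 and Tgfbr1 in MLL-AF1p did. The cause of the other changes was not tested.

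Without libraries numbered 1, Lmo2 for MLL-AF1p minus MLL-AF9 passed (−0.72), Myb for MLL-AF6 minus MLL-AF9 did not (0.33), and 2168 genes differed in effect between MLL-AF6 and MLL-AF1p. Without those numbered 2, Msi2 differences passed (0.40 for MLL-AF1p minus MLL-AF6, −0.31 for MLL-AF6 minus MLL-AF9) and Sox4 in MLL-AF6 did not (−0.24). Without those numbered 3, the falls of Myb (−0.39), Lmo2 (−0.47) and Sox4 (−0.71) in MLL-AF1p and of Sox4 in MLL-AF6 (−0.48) and MLL-AF9 (−0.52) did not pass, leaving 2 lower genes in MLL-AF1p, nor did Lmo2 (−0.74) or Myb (0.39) for MLL-AF6 minus MLL-AF9. Genes changed were then 3598, 3141 and 1977 in MLL-AF9, MLL-AF6 and MLL-AF1p (6339, 6402 and 5103 with all). Genes different were 3184, 4720 and 2362 under DMSO and 1812, 2849 and 2530 under MI-2-2 (MLL-AF9 with MLL-AF6, MLL-AF9 with MLL-AF1p, MLL-AF6 with MLL-AF1p). Genes of different effect were 621, 836 and 386 in those pairs, and 1122 over the 3 lines.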

Other observations

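Libraries of one number stood apart in more than one line for these genes, in control and in treated cells. Angpt1 was lowest in the DMSO library numbered 2 of each line, at 0.290, 2.03 and 2.66 RPKM in MLL-AF9, MLL-AF6 and MLL-AF1p. It was also lowest in the MI-2-2 library numbered 2 of each line, at 0, 0.0557 and 0.285 RPKM. Lmo2 was highest and Sox4 lowest in the DMSO library numbered 1 of MLL-AF9 (27.1 and 0.991 RPKM) and of MLL-AF6 (50.4 and 0.772 RPKM). With MI-2-2, Lmo2 was highest in the library numbered 1 of each line (21.5, 24.5 and 16.4 RPKM). Treated Sox4 was lowest there in MLL-AF9 and MLL-AF6 (0.638 and 0.607 RPKM). In MLL-AF1p, Sox4 was lowest in number 3 with either treatment (2.86 and 1.66 RPKM), and control Lmo2 was highest in number 2 (22.5 RPKM). DMSO libraries 1 and 2 also differed most over all genes in each line. Their chi-square per degree of freedom, a multiple of the variance of read counting, was 76.1, 70.1 and 58.6. These are values of single libraries that were looked for after the data were seen.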
